A study of Mus musculus with 29 samples.

Results

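Neutrophil primary granule genes were followed in sorted mouse megakaryocyte-erythrocyte progenitors (MEPs), the bone marrow progenitors of platelets and red cells. The set is 7 genes chosen by name: the granule protein genes Elane, Mpo, Prtn3 and Ctsg, the early granulocyte-monocyte membrane protein gene Ms4a3, and the transcription factor genes Cebpa and Gfi1. They were found by Entrez identifier among 18834 genes in the deposited count tables, and all 7 were among the 13928 genes that passed a filter on low counts and were tested. RNA-seq libraries from 29 MEP samples fell into 6 genotype groups, and every group carried the SclCre transgene (also written ScleCre). With JAK2 V617F there were 6 Ezh2 -/- libraries, 6 Ezh2 +/- libraries and 4 Ezh2 +/+ libraries. Without it there were 4 Ezh2 -/- libraries, 4 Ezh2 +/- libraries and 5 Ezh2 +/+ libraries, the last being the controls. All 12 libraries of the V617F Ezh2 -/- and V617F Ezh2 +/- groups were female, against 3 of 4 in V617F Ezh2 +/+, 3 of 4 in Ezh2 -/-, 2 of 4 in Ezh2 +/- and 3 of 5 in Ezh2 +/+. EZH2 methylates histone H3 as the catalytic subunit of PRC2, and V617F makes the kinase JAK2 signal without cytokine, as in human myeloproliferative neoplasms. The sources used here give neither strain nor age, nor the time of Cre activity, nor the sorting gates. The labels speak only of replicates, so p-values measure the spread between these libraries.

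Primary, or azurophil, granules are the first granules that a neutrophil precursor makes, at the promyelocyte stage. Their contents are transcribed earlier still, in granulocyte-monocyte progenitors (GMPs), and are then shut off before the secondary and tertiary granule genes come on. MPO makes hypochlorous acid from hydrogen peroxide and chloride, while neutrophil elastase (Elane), proteinase 3 (Prtn3) and cathepsin G (Ctsg) are related serine proteases that are stored in active form. C/EBPα (Cebpa) starts the granulocytic programme, and GFI1 is a zinc-finger repressor needed for neutrophil maturation, whose paralog GFI1B serves erythroid and megakaryocytic cells. In textbook schemes of blood formation MEPs and GMPs are separate branches, so these genes are classically low in MEPs.

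The 5 genes other than Cebpa and Gfi1 shared 1 short sequence upstream of their start. The 6 letters GGAAGT are the core bound by ETS factors such as PU.1, the myeloid master regulator that acts on several of these promoters. Searched on both strands of the 250 bases before the annotated start, they were present in Elane, Mpo, Prtn3, Ctsg and Ms4a3, in each case on the gene's own strand, and in 19.7% of 32851 RefSeq promoters of assembly GRCm38.p6. They were in neither Cebpa nor Gfi1. The 5 sequences are shown because they hold GGAAGT, and the other motifs searched are given below. Whether the motif bears on RNA levels was not tested. Each runs 5′ to 3′ on the gene's strand and ends at the base before the start, and capitals mark GGAAGT. All come from the RefSeq table of GRCm38.p6, a later build than the mm9 used for the counts.
Elane, chr10:79886062-79886311, plus strand: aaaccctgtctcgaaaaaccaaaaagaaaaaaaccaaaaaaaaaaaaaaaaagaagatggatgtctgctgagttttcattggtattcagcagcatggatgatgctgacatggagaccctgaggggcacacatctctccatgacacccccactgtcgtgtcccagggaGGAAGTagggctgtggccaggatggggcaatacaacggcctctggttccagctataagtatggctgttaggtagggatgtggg
Prtn3, chr10:79879417-79879666, plus strand: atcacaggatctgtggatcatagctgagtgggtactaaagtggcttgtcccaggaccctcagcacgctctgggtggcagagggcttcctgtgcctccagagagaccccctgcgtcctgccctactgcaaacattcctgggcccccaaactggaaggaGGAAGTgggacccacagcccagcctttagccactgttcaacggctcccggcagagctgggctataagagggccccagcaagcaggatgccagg
Mpo, chr11:87793534-87793783, plus strand: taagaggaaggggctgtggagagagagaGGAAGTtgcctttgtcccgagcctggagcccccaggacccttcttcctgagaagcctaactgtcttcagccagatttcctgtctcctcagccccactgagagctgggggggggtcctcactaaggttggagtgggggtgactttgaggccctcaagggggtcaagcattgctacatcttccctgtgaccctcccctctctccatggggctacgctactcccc
Ctsg, chr14:56102575-56102824, minus strand: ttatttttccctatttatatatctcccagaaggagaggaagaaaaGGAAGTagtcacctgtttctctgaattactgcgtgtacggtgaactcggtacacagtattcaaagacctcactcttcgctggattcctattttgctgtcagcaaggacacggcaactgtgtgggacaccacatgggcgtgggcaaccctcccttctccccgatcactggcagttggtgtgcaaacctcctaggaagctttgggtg
Ms4a3, chr19:11640852-11641101, minus strand: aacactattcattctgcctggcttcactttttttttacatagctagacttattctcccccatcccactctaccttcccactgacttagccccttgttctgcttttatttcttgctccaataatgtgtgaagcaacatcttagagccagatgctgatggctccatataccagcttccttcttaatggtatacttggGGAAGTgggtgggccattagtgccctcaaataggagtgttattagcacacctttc
Elane lies at chr10:79886312-79888216 on the plus strand and its GGAAGT begins 83 bases before the start. Prtn3 is its upstream neighbour at chr10:79879667-79883174 and ends 3138 bases before the start of Elane. In Prtn3 the motif begins 93 bases before the start. It begins 222 bases before the start of Mpo (chr11:87793784-87804412, plus strand), 205 before that of Ctsg (chr14:56099885-56102574, minus strand) and 55 before that of Ms4a3 (chr19:11629499-11640851, minus strand). The letters GAGGAA, a PU.1 form with bases further upstream that can overlap GGAAGT, were in Elane, Mpo, Prtn3 and Ctsg and in 23.3% of promoters. A MYB core, AACNG, was in 6 of the 7 genes (all but Ms4a3) and in 74.2% of promoters. The C/EBP motif TTNNGNAA was in Ms4a3 and Gfi1 (36.8% of promoters). A RUNX core, TGNGGT, was in Ctsg and in the second annotated promoter of Gfi1 (40.1%). The GFI1 core AATCNNNGC (8.87%) and the GATA motif AGATAA (9.99%) were in none of the windows. TATAAA was in Ctsg and Cebpa (12.4%). A match describes letters and not a bound site.

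Libraries held 31.6 to 59.4 M counts (median 44.6 M), and a floor of 3 counts was 0.0505 to 0.095 CPM of the unscaled total. All other CPM are the share of the TMM-scaled library total, scaled to 1 M. The lowest count of any of the 7 genes was 14 (Gfi1), so none was near that floor. Such floors cover counting error only. Ezh2 RNA followed the labels, at 55 ± 3.1 CPM in V617F Ezh2 -/-, 174 ± 23.2 in V617F Ezh2 +/-, 289 ± 31.2 in V617F Ezh2 +/+, 73.4 ± 5.89 in Ezh2 -/-, 192 ± 4.28 in Ezh2 +/- and 303 ± 20 in Ezh2 +/+ (mean ± SD). The erythroid regulators Gata1 and Klf1 were expressed in all groups, at group means of 230 to 283 and 229 to 316 CPM. These 2 markers do not measure how many other cells the samples held. 3 libraries without V617F stood apart in the genes described here: control replicate 5 and Ezh2 +/- replicates 2 and 5. All were female, and the remaining Ezh2 +/- libraries were both male, so that in this group sex and standing apart cannot be told apart. Their GMP markers summed to 453 to 675 CPM, against 134 to 320 in the other 10 libraries without V617F. Their monocyte, macrophage and dendritic markers summed to 114 to 293 against 40.6 to 139, and their T and NK markers to 182 to 276 against 77.4 to 147. The part of this in the results was not tested, and counts of calls are also given without these libraries. They were set apart by their values of these genes, and all lack V617F. Leaving them out therefore lowers the side without V617F in Ezh2 +/+ and Ezh2 +/-, and calls so gained are only descriptions.

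Elane was called higher with V617F in all 3 Ezh2 genotypes, while the number of other genes called differed by genotype. In Ezh2 +/- the Elane call was kept in 4 of 10 fits with 1 library left out. With female libraries alone Elane was called in Ezh2 -/- but not in Ezh2 +/- or Ezh2 +/+. Averaged over all 29 libraries and per kilobase of gene length, Mpo was the most abundant at 59.6 RPKM, followed by Prtn3 at 42.9, Elane at 37, Ctsg at 18.7, Ms4a3 at 8.95, Cebpa at 1.84 and Gfi1 at 0.624. The levels with and without V617F overlapped when all 13 libraries without it were counted, for example at 31.6 to 696 CPM of Mpo with V617F and 5.05 to 205 CPM without. In bulk RNA, fewer cells of a type and less RNA per cell cannot be told apart.

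**Figure D1:**
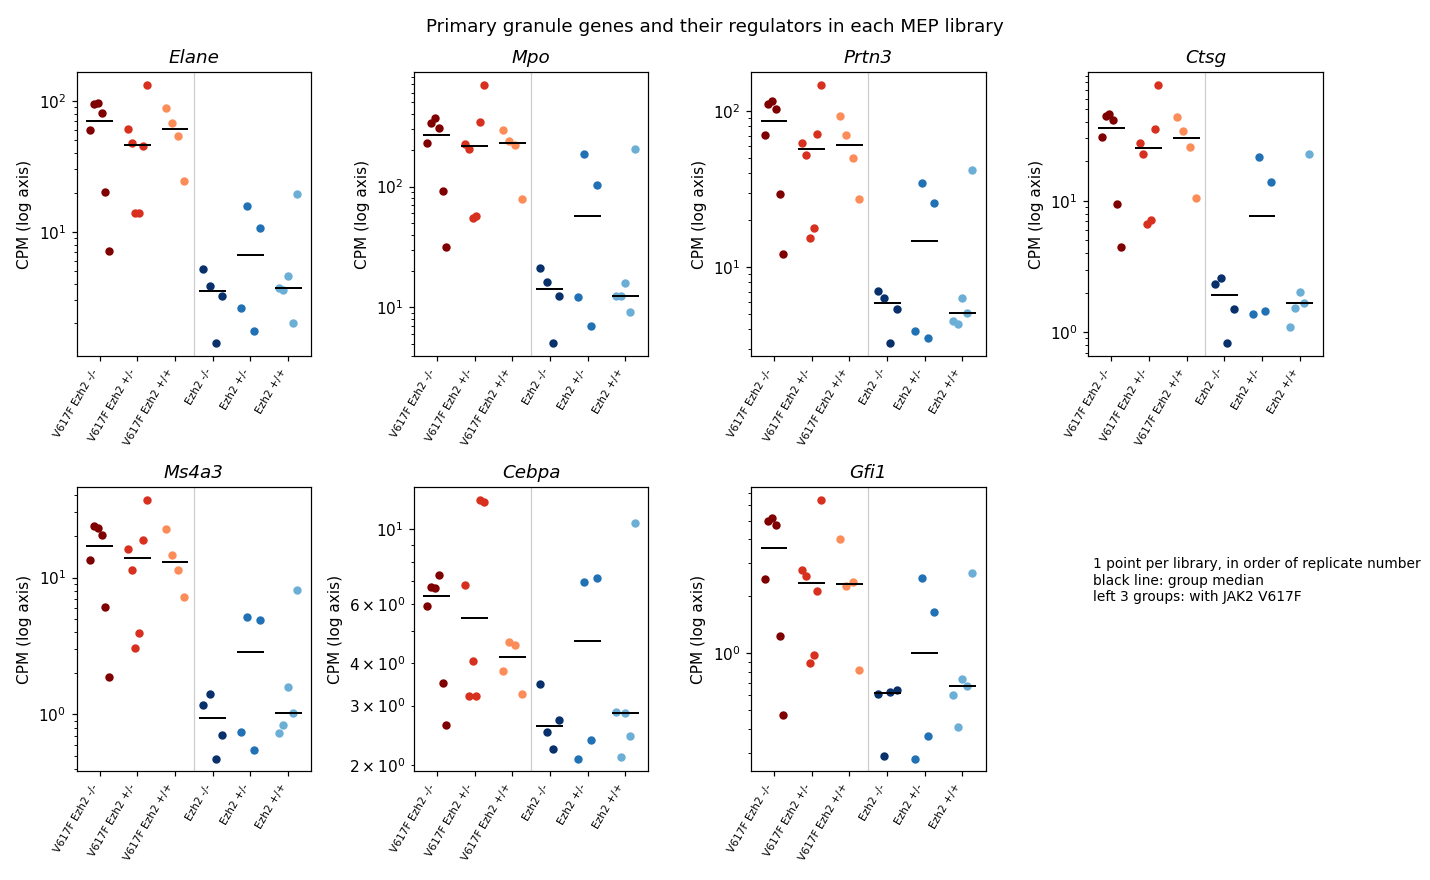
Each point is the CPM of 1 library on a log axis, in order of replicate number, with the group median as a black line and the V617F groups on the left. The granule genes of the V617F groups sit above most libraries without V617F, and control replicate 5 and Ezh2 +/- replicates 2 and 5 lie high in their own groups.

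Elane, neutrophil elastase, ranged over 7.16, 70.1 and 96.7 CPM (lowest, median and highest of 6) in V617F Ezh2 -/- and over 13.9, 46.5 and 133 in V617F Ezh2 +/-. It measured 88.3, 67.6, 54.2 and 24.7 CPM in V617F Ezh2 +/+. Without V617F it measured 5.21, 3.85, 1.41 and 3.24 CPM in Ezh2 -/-, 2.63, 15.7, 1.74 and 10.8 in Ezh2 +/- (replicates 1, 2, 4 and 5), and 3.75, 3.63, 4.62, 2.02 and 19.4 in Ezh2 +/+. The V617F groups were high, with 2 low members in each of the Ezh2 -/- and Ezh2 +/- groups, and within 1 Ezh2 genotype libraries with and without V617F overlapped only in Ezh2 +/-.

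Mpo, myeloperoxidase, ranged over 31.6, 268 and 369 CPM in V617F Ezh2 -/- and over 55.2, 215 and 696 in V617F Ezh2 +/-, and measured 292, 239, 223 and 78.3 in V617F Ezh2 +/+. In the absence of V617F it measured 21.1, 16.1, 5.05 and 12.4 CPM in Ezh2 -/-, 12.3, 187, 6.99 and 103 in Ezh2 +/-, and 12.4, 12.5, 15.9, 9.16 and 205 in Ezh2 +/+. It separated the groups in Ezh2 -/-, while the high libraries of Ezh2 +/- and Ezh2 +/+ lay inside the V617F range.

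Prtn3, proteinase 3, ranged over 12.2, 86.9 and 116 CPM in V617F Ezh2 -/- and over 15.5, 57.8 and 148 in V617F Ezh2 +/-, and measured 94, 70.6, 50.6 and 27.5 in V617F Ezh2 +/+. Libraries without V617F measured 7.06, 6.39, 3.26 and 5.37 CPM in Ezh2 -/-, 3.93, 34.9, 3.52 and 25.7 in Ezh2 +/-, and 4.56, 4.31, 6.36, 5.06 and 42 in Ezh2 +/+. As with Mpo, the overlap came from the 3 high libraries.

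Ctsg, cathepsin G, ranged over 4.45, 36.1 and 46.2 CPM in V617F Ezh2 -/- and over 6.62, 25.3 and 76.7 in V617F Ezh2 +/-, and measured 43.6, 34.1, 25.8 and 10.5 in V617F Ezh2 +/+. Without V617F it measured 2.34, 2.6, 0.824 and 1.5 CPM in Ezh2 -/-, 1.38, 21.8, 1.45 and 13.9 in Ezh2 +/-, and 1.1, 1.54, 2.04, 1.67 and 22.9 in Ezh2 +/+. Ms4a3, whose protein is a marker of the granulocyte-monocyte lineage from the GMP onwards, ranged over 1.89, 17 and 23.8 CPM in V617F Ezh2 -/- and over 3.07, 13.8 and 36.9 in V617F Ezh2 +/-. It measured 22.6, 14.7, 11.4 and 7.16 CPM in V617F Ezh2 +/+. In the absence of V617F it measured 1.18, 1.4, 0.476 and 0.709 CPM in Ezh2 -/-, 0.738, 5.16, 0.552 and 4.94 in Ezh2 +/-, and 0.734, 0.839, 1.58, 1.02 and 8.13 in Ezh2 +/+. For both genes the libraries with V617F were all above those without it in Ezh2 -/-, and the 3 high libraries again overlapped the V617F range.

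The regulators were less far apart. Cebpa ranged over 2.62, 6.32 and 7.29 CPM in V617F Ezh2 -/- and over 3.2, 5.45 and 12.2 in V617F Ezh2 +/-, and measured 3.81, 4.64, 4.55 and 3.24 in V617F Ezh2 +/+. Libraries without V617F measured 3.48, 2.51, 2.23 and 2.71 CPM in Ezh2 -/-, 2.09, 6.95, 2.37 and 7.18 in Ezh2 +/-, and 2.88, 2.11, 2.86, 2.43 and 10.4 in Ezh2 +/+. Every group of Cebpa overlapped every other. Gfi1 ranged over 0.473, 3.61 and 5.13 CPM in V617F Ezh2 -/- and over 0.885, 2.34 and 6.41 in V617F Ezh2 +/-, and measured 4.02, 2.25, 2.37 and 0.821 in V617F Ezh2 +/+. Without V617F it measured 0.61, 0.288, 0.623 and 0.644 CPM in Ezh2 -/-, 0.279, 2.49, 0.368 and 1.64 in Ezh2 +/-, and 0.603, 0.408, 0.734, 0.673 and 2.66 in Ezh2 +/+. It was low everywhere, while its paralog Gfi1b averaged 158 to 207 CPM over the 6 groups. Per length, Gfi1 averaged 1.02 ± 0.661 RPKM and Gfi1b 87 ± 12.8 RPKM in V617F Ezh2 -/- (SD, n = 6), the group with the highest mean of Gfi1.

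In Ezh2 -/- MEPs, 6 of the 7 genes rose with V617F against none (edgeR quasi-likelihood test, Benjamini-Hochberg adjustment over all tested genes, threshold 0.05), where 19.1% of tested genes were called higher. Elane averaged 59.8 ± 38.4 CPM with V617F and 3.43 ± 1.58 without (SD, n = 6 and 4), a log2 fold change of 3.85 ± 0.83 (SE, adjusted p = 0.00141). Ms4a3 rose by 3.62 ± 0.83 (adjusted p = 0.00225), Ctsg by 3.58 ± 0.95 (0.00593), Mpo by 3.55 ± 1.02 (0.00942) and Prtn3 by 3.33 ± 0.80 (0.00318) on the log2 scale. For these 5 every library with V617F was above every library without it, as held for 19% of tested genes. Gfi1 rose by 2.24 ± 0.72 (adjusted p = 0.0174) with overlapping libraries, and Gfi1b fell by 0.36 ± 0.14 (0.0409), a call lost without any 1 of Ezh2 -/- replicates 1 to 3 or V617F Ezh2 -/- replicates 1 to 4 (adjusted p 0.0628 to 0.161). Cebpa, at 5.47 ± 1.93 CPM with V617F and 2.73 ± 0.533 without, was not called (log2 0.80 ± 0.46, adjusted p = 0.156). The median log2 fold change of the 7 genes was 3.55, against -0.03 over all tested genes. The call on Gfi1 was lost without Ezh2 -/- replicate 1 (adjusted p = 0.0533), 2 (0.0603) or 3 (0.0605), and those on Elane, Ms4a3, Ctsg, Mpo and Prtn3 were kept when any 1 library was left out (adjusted p at most 0.0459). Cebpa was called without the 3 high libraries (1.04, adjusted p = 0.0319) and when the 2 compared groups were fitted alone (1.03, 0.0221).

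In Ezh2 +/+ MEPs, 4 of the 7 genes rose with V617F against none, where 9.73% of tested genes were called higher. Elane averaged 58.7 ± 26.6 CPM with V617F and 6.69 ± 7.18 without (SD, n = 4 and 5), a log2 fold change of 3.11 ± 0.73 (adjusted p = 0.00327). It was the only one of the 7 whose libraries did not overlap, a property of 5.23% of tested genes. Ms4a3 rose by 2.60 ± 0.72 (adjusted p = 0.0106), Ctsg by 2.54 ± 0.83 (0.0272) and Prtn3 by 2.36 ± 0.71 (0.0167). Mpo, at 208 ± 91.4 CPM with V617F and 51 ± 86.2 without, missed the threshold (2.38 ± 0.90, adjusted p = 0.0541), as did Gfi1 (1.24 ± 0.66, 0.171) and Cebpa (-0.01 ± 0.46, 0.987). Without control replicate 5 Mpo was called (3.87, adjusted p = 0.00442), and without that library and both high Ezh2 +/- libraries 6 genes were called, Gfi1 among them (1.98, 0.0399). V617F Ezh2 +/+ replicate 3, the male library of its group, was the other library whose loss moved the count most, and without it only Elane was called, with Prtn3 at 1.90 (0.0799), Ms4a3 at 2.07 (0.0612) and Ctsg at 1.78 (0.147). Ctsg was also lost without control replicate 1 (0.0708), 2 (0.0614), 3 (0.0621) or 4 (0.0553), and Mpo was gained without V617F Ezh2 +/+ replicate 4 (0.0398). With female libraries alone, which keep control replicate 5, none of the 7 was called by edgeR and Elane stood at 2.75 (adjusted p = 0.0594).

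In Ezh2 +/- MEPs, Elane alone rose with V617F against none, where 3.35% of tested genes were called higher. Elane averaged 52.6 ± 43.9 CPM with V617F and 7.72 ± 6.72 without (SD, n = 6 and 4), a log2 fold change of 2.51 ± 0.76 (adjusted p = 0.0343). The other 6 genes had log2 fold changes of 0.36 ± 0.45 (Cebpa) to 2.04 ± 0.75 (Ms4a3, adjusted p = 0.0847), with Mpo at 1.56 ± 0.88 (0.296). None of the 7 separated the libraries of both groups, as 2.78% of tested genes did. The call on Elane did not outlast several changes: it was lost without Ezh2 +/- replicate 1 (adjusted p = 0.0885), 2 (0.0505), 4 (0.0756) or 5 (0.0918), or V617F Ezh2 +/- replicate 1 (0.0501) or 6 (0.0885). Without the 3 high libraries, which leaves 2 male Ezh2 +/- libraries against 6 female V617F ones, Elane stood at 4.56 (0.0785).

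**Figure D2:**
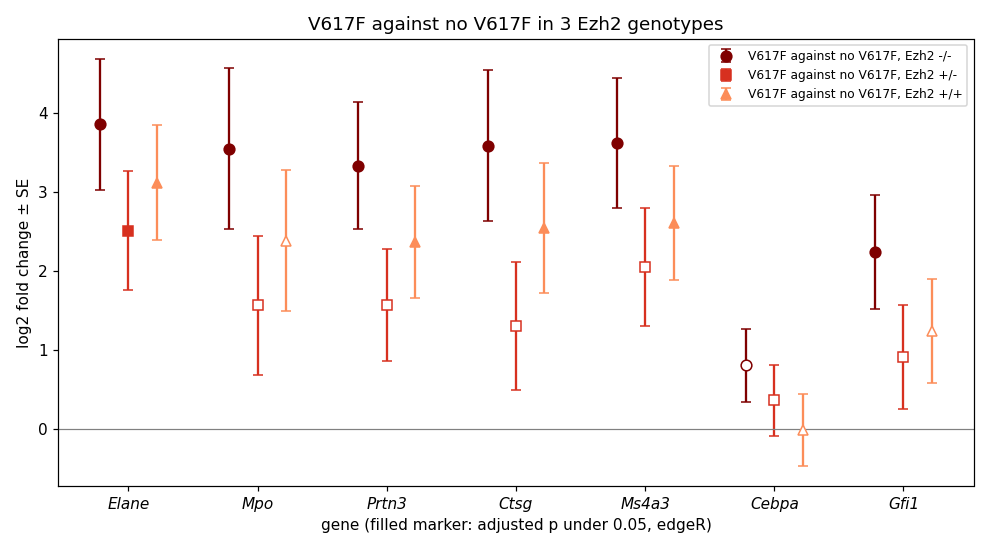
Points are log2 fold changes with V617F against none for each gene in Ezh2 -/-, Ezh2 +/- and Ezh2 +/+ MEPs, bars are standard errors, and filled markers passed adjusted p under 0.05. Elane is filled in all 3 genotypes, and Cebpa is filled in none.

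Whether the difference with V617F itself differed between the Ezh2 genotypes was tested by interaction terms, and no difference was called. With Ezh2 -/- the 7 interactions were 0.74 (Elane) to 1.17 (Mpo) on the log2 scale, and the lowest adjusted p was 0.35, where 19.1% of tested genes were called in either direction. With Ezh2 +/- they were -1.24 (Ctsg) to 0.38 (Cebpa) and the lowest adjusted p was 0.909, where 0% of tested genes were called. None of the 7 reached an unadjusted p of 0.05 in either test by edgeR, and DESeq2 called none. The standard errors were 0.64 to 1.33, so interactions of around 1 log2 unit were within the error.

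MEPs with both mutations, set against controls, had 4 of the 7 genes higher, where 19.7% of tested genes were called higher. Elane averaged 59.8 ± 38.4 CPM in V617F Ezh2 -/- and 6.69 ± 7.18 in Ezh2 +/+ (SD, n = 6 and 5), a log2 fold change of 2.83 ± 0.72 (adjusted p = 0.00284). Prtn3 rose by 2.22 ± 0.68 (adjusted p = 0.0111), Ms4a3 by 2.21 ± 0.69 (0.0127) and Ctsg by 1.97 ± 0.78 (0.0437). Mpo (1.86 ± 0.83, 0.0761), Gfi1 (1.36 ± 0.63, 0.0854) and Cebpa (0.19 ± 0.42, 0.745) did not pass. No gene of the 7 separated the groups, as 15.9% of tested genes did, since control replicate 5 lay above V617F Ezh2 -/- replicate 6 in all of them. Without that control library Mpo (3.73, adjusted p = 0.00335) and Gfi1 (2.10, 0.0233) were called too, and without V617F Ezh2 -/- replicate 6 they were also called (0.0462 and 0.0377). With female libraries alone, and with the compared groups fitted alone, only Elane was called. Without all 3 high libraries, which were set apart for being high in these genes, all 7 were called, Cebpa at 1.15 (0.0299). Ctsg was lost without any 1 of control replicates 1 to 4 (adjusted p 0.074 to 0.116) or of V617F Ezh2 -/- replicates 1 to 4 (0.0573 to 0.0773). This comparison shares its controls with that of V617F in Ezh2 +/+.

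Ezh2 loss on its own left the genes without a call. In Ezh2 -/- against Ezh2 +/+ without V617F, 0 of 7 passed in edgeR or DESeq2 and none reached an unadjusted p of 0.05, where 23.7% of tested genes were called in either direction. The estimates were all negative, from -0.61 ± 0.46 for Cebpa to -1.68 ± 0.94 for Mpo (13.7 ± 6.75 CPM in Ezh2 -/- and 51 ± 86.2 in Ezh2 +/+, adjusted p = 0.195). Their size rested on control replicate 5, without which Mpo stood at -0.12, Cebpa at -0.004 and Ms4a3, the farthest from 0, at -0.41. Without all 3 high libraries Mpo stood at 0.14, Prtn3 at 0.08, Ctsg at 0.12 and Cebpa at 0.11, while Elane (-0.05), Ms4a3 (-0.27) and Gfi1 (-0.15) kept a negative sign. Among 18 myeloid transcription factors 4 were lower and 1 higher, where 12.2% of tested genes were called lower and 11.5% higher, and Spi1, the gene of PU.1, fell by 1.56 ± 0.40 on the log2 scale (2.8 ± 0.591 CPM in Ezh2 -/- and 7.81 ± 4.18 in Ezh2 +/+, adjusted p = 0.00555). Spi1 stood at -1.23 ± 0.40 without control replicate 5 (0.0368) and was lost without all 3 high libraries (-1.12 ± 0.40, 0.0585). GMP markers were lower in 9 of 26 and other azurophil genes in 5 of 13 with 1 higher. Without the 3 high libraries, where 6.09% of tested genes were called lower and 9.5% higher, 0 transcription factors were lower and 3 higher, 3 GMP markers were lower, and 2 other azurophil genes were lower and 3 higher. With V617F, Ezh2 -/- against Ezh2 +/+ gave estimates of -0.57 (Ctsg) to 0.20 (Cebpa), with 0 of 7 called where 26.6% of tested genes were called in either direction. In Ezh2 +/- against Ezh2 +/+ 0 of 7 were called without V617F (log2 0.13 to 0.66, 0.0144% of tested genes called), and without the 3 high libraries 6 of these 7 estimates turned negative. With V617F 0 of 7 were called as well (-0.58 to 0.54, 0.00718% of tested genes called). In these 3 comparisons too no member reached an unadjusted p of 0.05 in edgeR, and DESeq2 called none.

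The granule genes varied together from library to library. After subtracting each group's mean log2 CPM, Pearson's r over the 29 libraries was 0.957 (Elane with Ctsg) to 0.993 (Prtn3 with Ctsg) for the 10 pairs among Elane, Mpo, Prtn3, Ctsg and Ms4a3. It was 0.897 to 0.94 between these and Gfi1, 0.843 to 0.905 between these and Cebpa, and 0.816 between Cebpa and Gfi1. These values describe libraries that share their depth and their mix of cells, so they carry no test. The summed CPM of the 5 genes ranged over 11 in Ezh2 -/- replicate 3 to 1090 in V617F Ezh2 +/- replicate 6, a 99.1-fold span. Across that span counts per 100 counts of Mpo ranged over 8.42 to 31.6 for Elane (3.75-fold), 18.6 to 64.5 for Prtn3 (3.47-fold), 8.86 to 20.7 for Ctsg (2.34-fold) and 2.76 to 11.2 for Ms4a3 (4.06-fold). For Cebpa they ranged over 1.3 to 44.2.

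The ratio of Elane to Mpo set 4 libraries apart. Elane stood at 9.47 counts per 100 Mpo counts in control replicate 5, at 8.42 and 10.5 in Ezh2 +/- replicates 2 and 5, and at 13.3 in V617F Ezh2 +/- replicate 5. In the other 25 libraries it was 19.1 to 31.6. The same 4 libraries were the lowest in secondary and tertiary granule RNA relative to primary, at 19.2 to 47.5 summed CPM per 100 summed CPM of the 5 genes, against 76.4 to 410 in the other 25. They were chosen by the first ratio after the values were seen. Mpo is the base of the first ratio and part of the base of the second, so the ratios are not independent. Control replicate 5 and Ezh2 +/- replicates 2 and 5 had also been set apart for high values of these genes. The shared order is therefore only a description. V617F Ezh2 +/- replicate 5 also had 12.2 CPM of Cebpa, the highest of all libraries.

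**Figure D3:**
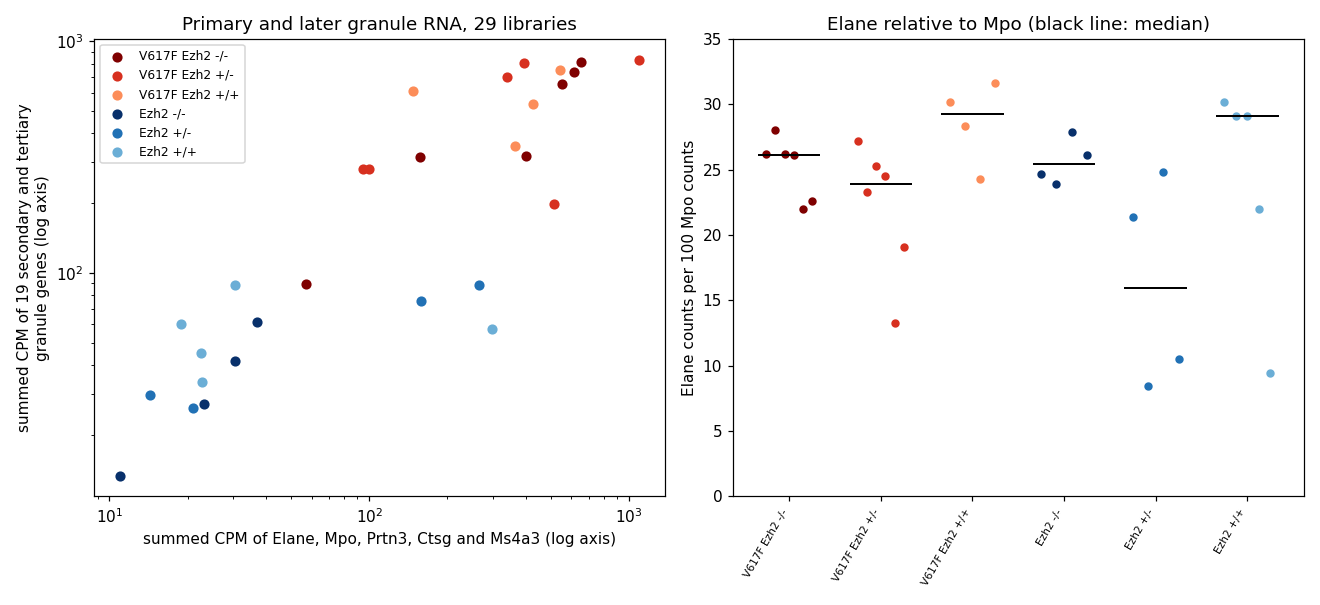
On the left each point is 1 library, with the summed CPM of Elane, Mpo, Prtn3, Ctsg and Ms4a3 against that of 19 secondary and tertiary granule genes, both on log axes. On the right are Elane counts per 100 Mpo counts by group, where 4 libraries lie at 8.42 to 13.3 and the others at 19.1 to 31.6.

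Counts in lists of related genes are to be read against all tested genes, of which 19.1% were called higher and 22.5% lower with V617F in Ezh2 -/-, 3.35% and 6.51% in Ezh2 +/-, and 9.73% and 13.9% in Ezh2 +/+. With the 3 high libraries left out these shares were 21% and 20.6% in Ezh2 -/-, 0.459% and 0.205% in Ezh2 +/-, and 9.24% and 10% in Ezh2 +/+. List counts without those libraries were added after the values were seen. Of 13 tested genes in a list of 15 others of azurophil granules and granule handling, 9 rose with V617F against none in Ezh2 -/- (median log2 fold change 1.05), 3 in Ezh2 +/- (median 0.11, with 1 lower) and 5 in Ezh2 +/+ (median 1.01, with 1 lower). Bpi and Lyz1 fell under the count filter, and Lyz1 is a near copy of Lyz2 whose reads the counting could split. Lyz2, lysozyme, was at 62.2 ± 27.9 CPM in V617F Ezh2 -/- and 6.54 ± 1.74 in Ezh2 -/- (log2 2.98 ± 0.42, adjusted p = 4.93e-05). The myeloid receptor gene Clec5a (3.50 ± 0.63, 0.000384), the elastase inhibitor gene Serpinb1a (2.74 ± 0.53, 0.000662) and the azurophil serine protease gene Prss57 (2.23 ± 0.48, 0.00149) rose with it in Ezh2 -/-. Lyz2 and Clec5a were higher with V617F in Ezh2 +/- and Ezh2 +/+ as well. Cyba, the small subunit of the flavocytochrome of the NADPH oxidase, was lower with V617F in Ezh2 +/+ (-0.35 ± 0.09, 0.00708) and Ezh2 +/- (-0.30 ± 0.09, 0.0413). Of 17 lysosomal hydrolases that azurophil granules also hold, 2 were higher and 6 lower in Ezh2 -/- (11.8% and 35.3%), 1 and 2 in Ezh2 +/- (5.88% and 11.8%), and 1 and 3 in Ezh2 +/+ (5.88% and 17.6%). With the 3 high libraries left out the counts were 3 and 5, 1 and 0, and 1 and 3. Their summed CPM was 1280 to 1380 in V617F Ezh2 -/- and 1380 to 1470 in Ezh2 -/-.

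Secondary and tertiary granule genes, which neutrophils express at later stages, were higher with V617F in 19 of 19 in Ezh2 -/-, 12 of 19 in Ezh2 +/- and 17 of 19 in Ezh2 +/+ (median log2 fold changes 3.27, 2.96 and 2.94). These counts were 19, 1 and 17 without the 3 high libraries. Lactoferrin (Ltf) was at 41.1 ± 23.4 CPM in V617F Ezh2 -/- and 3 ± 2.06 in Ezh2 -/- (3.60 ± 0.54, adjusted p = 7.69e-05). Its level was 57.1 ± 15.1 in V617F Ezh2 +/+ and 5.25 ± 2.4 in Ezh2 +/+ (3.32 ± 0.49, 5.57e-05). The calprotectin gene S100a9 rose by 3.67 ± 0.56 in Ezh2 -/- (9.04e-05) and by 3.41 ± 0.51 in Ezh2 +/+ (6.36e-05). Cebpe, the C/EBP factor of the secondary granule stage, was at 2.18 ± 1.09 CPM in V617F Ezh2 +/+ and 0.265 ± 0.164 in Ezh2 +/+ (2.83 ± 0.74, 0.00688). It also rose in Ezh2 +/- (2.78 ± 0.77, 0.0213). Control replicate 5, high in all 7 primary genes, held 57.1 summed CPM of the secondary list, the median of its group.

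GMP markers were higher with V617F in 18 of 26 in Ezh2 -/- with 0 lower, against 2 higher and 2 lower in Ezh2 +/- and 4 higher and 2 lower in Ezh2 +/+. These are shares of 69.2% higher in Ezh2 -/-, 7.69% in each direction in Ezh2 +/-, near the 6.51% of all genes called lower, and 15.4% higher in Ezh2 +/+. Without the 3 high libraries, which were high in this list, 22, 0 and 12 were higher in Ezh2 -/-, Ezh2 +/- and Ezh2 +/+. Plac8 (2.53 ± 0.37, adjusted p = 6.18e-05), the interleukin-6 receptor gene Il6ra (3.18 ± 0.56, 0.000351), the ficolin gene Fcnb (3.16 ± 0.63, 0.000841) and Anxa3 (3.44 ± 0.71, 0.00103) led in Ezh2 -/-. In Ezh2 +/+ Fcnb (3.34 ± 0.60, 0.000385) rose, while the monocytic receptor gene Csf1r (-2.61 ± 0.68, 0.00721) and Ly86 (-2.22 ± 0.55, 0.00505) fell. Their summed level was 411 to 784 CPM in V617F Ezh2 -/- and 134 to 189 in Ezh2 -/-, and 321 to 520 in V617F Ezh2 +/+ and 220 to 675 in Ezh2 +/+. The 18 myeloid transcription factors counted here leave out Cebpa and Gfi1. Of the 18, 9 were higher in Ezh2 -/- and 0 lower, 5 and 1 in Ezh2 +/-, and 5 and 3 in Ezh2 +/+. Leaving out the 3 high libraries gave 10, 0 and 6 higher. Spi1 (1.98 ± 0.40, 0.000916) and Runx1 (0.97 ± 0.17, 0.000335) were among the 9. In Ezh2 +/+ 27.8% of the 18 were called higher and 16.7% lower. Among the lower ones there were Myb (-0.53 ± 0.08, 9.7e-05) and Id2 (-2.37 ± 0.46, 0.000685).

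**Figure D4:**
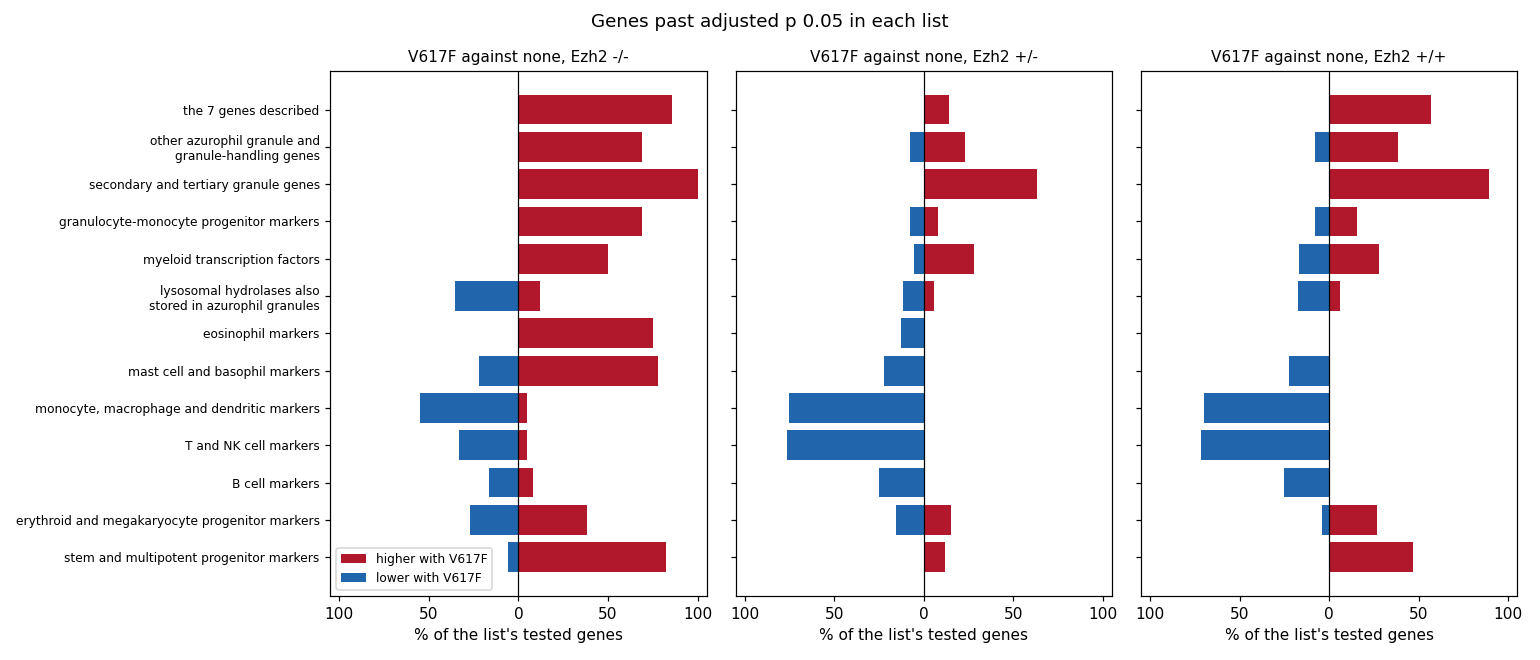
Bars give the share of each list's tested genes past adjusted p under 0.05, to the right where higher with V617F and to the left where lower, in Ezh2 -/-, Ezh2 +/- and Ezh2 +/+ MEPs. Secondary and tertiary granule genes extend furthest right in all 3 panels, and monocyte, macrophage and dendritic markers extend left.

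Markers of other cells are given for the same 3 comparisons. With V617F against none, 11 of 20 monocyte, macrophage and dendritic markers were lower and 1 higher in Ezh2 -/-, 15 lower and 0 higher in Ezh2 +/-, and 14 lower and 0 higher in Ezh2 +/+. T and NK markers were lower in 7, 16 and 15 of 21 in the same order, and higher in 1, 0 and 0. Without the 3 high libraries, which were high in both lists, monocyte, macrophage and dendritic markers were lower in 8, 0 and 8 and T and NK markers in 7, 0 and 14. B cell markers were lower in 2, 3 and 3 of 12 and higher in 1, 0 and 0, and in Ezh2 -/- these shares (16.7% and 8.33%) were below those over all genes. They were lower in 0, 0 and 2 without the 3 high libraries. Eosinophil markers were higher in 6 of 8 in Ezh2 -/- (Prg2 2.75 ± 0.63, adjusted p = 0.00233), with 1 lower in Ezh2 +/- and 0 called in Ezh2 +/+. Of 9 tested mast cell and basophil markers 7 were higher and 2 lower in Ezh2 -/-, and 2 were lower in each of the others. Without the 3 high libraries eosinophil markers were higher in 6, 0 and 0, and mast cell and basophil markers in 7, 0 and 1. Stem and multipotent progenitor markers were higher in 14 of 17 with 1 lower in Ezh2 -/-, and higher in 2 and 8 in Ezh2 +/- and Ezh2 +/+, against 15, 0 and 10 higher without the 3 high libraries. Of 26 erythroid and megakaryocyte markers, 10 were higher and 7 lower in Ezh2 -/- (38.5% and 26.9%). The numbers were 4 and 4 in Ezh2 +/- (15.4% each), and 7 and 1 in Ezh2 +/+ (26.9% and 3.85%). These counts were 10 and 7, 0 and 0, and 7 and 0 without the 3 high libraries. Their summed level was 7310 to 8720 CPM in V617F Ezh2 -/- and 9250 to 10600 in Ezh2 -/-, with no overlap, 8160 to 12000 in V617F Ezh2 +/- and 8960 to 11700 in Ezh2 +/-, and 9300 to 10600 in V617F Ezh2 +/+ and 8380 to 10300 in Ezh2 +/+. The summed monocyte list was 19.3 to 61.4 CPM in V617F Ezh2 -/- and 40.6 to 73.3 in Ezh2 -/-, and 29.2 to 48.6 in V617F Ezh2 +/+ and 63.5 to 209 in Ezh2 +/+. The stem list summed to 1010 to 1390 CPM in V617F Ezh2 -/- and 388 to 520 in Ezh2 -/-, and to 557 to 1560 in V617F Ezh2 +/+ and 478 to 924 in Ezh2 +/+. The mast cell protease gene Prss34 was at 0 in all 5 controls. The part of other cells in the levels of the 7 genes was not tested.

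Likeness of pattern was ranked over 9852 genes whose log2 CPM averaged 2 or more. Those most like the mean of the 5 granule genes over the 29 libraries, after subtracting group means, were Atp8b4 (Pearson's r 0.969), the NADPH oxidase subunit gene Ncf1 (0.923), Vsir (0.908), Anxa1 (0.903) and Sorl1 (0.901). Among those most like Cebpa were Tm6sf1 (0.913) and Lgals1 (0.911). Those most like Gfi1 were Atp8b4 (0.924), the proton channel gene Hvcn1 (0.894) and Tyrobp (0.891). When group means were kept, 2 of the 5 genes most like the granule genes and 1 of the 3 most like Gfi1 stayed in the lists. These likenesses are descriptions with no test.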

How the data were processed

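RNA from sorted MEPs was extracted with Trizol-LS and sequenced on Illumina instruments, per the labels' protocols. The authors deposited whole-number read counts per gene with a gene length for each. The submitters' processing notes name STAR and mm9, while counter, annotation and strand setting are not stated there or in the labels. Symbols for 18772 of 18834 Entrez identifiers came from the RefSeq table of GRCm38.p6. From the deposited counts, edgeR 4.0.16 in R 4.3.3 was used to filter genes (filterByExpr, minimum count 10, minimum total 15), scale by TMM and fit 1 quasi-likelihood model with group and sex over all 29 libraries (22 residual degrees of freedom). Calls were two-sided at a Benjamini-Hochberg adjusted p under 0.05 over 13928 genes, and standard errors were the log2 fold change divided by the square root of F. CPM use TMM-scaled totals, and RPKM divide CPM by the deposited gene length in kilobases. Library totals were 31.6 to 59.4 M counts. No replicates were near-identical, since chi-square divided by its degrees of freedom was at least 4.92 between replicates.

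The 7 genes and all lists were chosen with earlier results of these data known. Named genes were the 7, up to 4 genes per list and direction with the lowest adjusted p in a comparison, the genes most alike in pattern (1 of which is not reported here), Ezh2, and Gfi1b; the lack of Bpi and Lyz1 and the markers Gata1, Klf1 and Prss34 were named after their values were seen. Alternatives were DESeq2 1.42.0 with its own size factors, edgeR with RLE size factors, no filter, no sex term, female libraries alone, the compared groups alone, a replicate block, the 3 high libraries left out, and each library left out in turn.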

Additional observations from a re-analysis of the deposited data

Results flagged for a closer look

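Dixon's test at the 95% level was run on CPM in 42 groups of 4 to 6 libraries, 1 for each gene and genotype. In 9 of them the highest or lowest library lay far from the rest. Chance alone does so in about 1 in 20 groups of independent, normally distributed values. The 42 groups share libraries and the genes varied together, so that rate does not apply to the 9. 7 of the 9 were the same library, control replicate 5. It held 19.4 CPM of Elane, 205 of Mpo, 42 of Prtn3, 22.9 of Ctsg, 8.13 of Ms4a3, 10.4 of Cebpa and 2.66 of Gfi1. In the other 4 controls Elane was 2.02 to 4.62 CPM, Mpo 9.16 to 15.9, Prtn3 4.31 to 6.36, Ctsg 1.1 to 2.04, Ms4a3 0.734 to 1.58, Cebpa 2.11 to 2.88 and Gfi1 0.408 to 0.734. The remaining 2 were values of Gfi1. It was low in Ezh2 -/- replicate 2 at 0.288 CPM, the next library being at 0.61, and high in V617F Ezh2 +/- replicate 6 at 6.41 CPM, the next being at 2.74.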

How the results depend on the processing

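Over 1363 alternative values of the 7 genes in 10 comparisons, 1210 kept their direction and side of the threshold, 42 lost and 19 gained a call, and 92 changed sign, none of them called before or after. For V617F against none in Ezh2 +/- (1 gene called), 2 were called with DESeq2 or with no sex term, and 0 with no filter, female libraries alone, the replicate block, the compared groups alone or without the 3 high libraries. Leaving out 1 library gave 0 to 1. In Ezh2 +/+ (4 called) 0 were called in female libraries and 1 to 5 when 1 library was left out. In V617F Ezh2 -/- against controls (4 called) 1 was called in female libraries or the compared groups alone and 7 without the 3 high libraries. Cebpa with V617F in Ezh2 +/+ changed sign to 0.003 with DESeq2, 0.34 with the block and 0.69 without the 3 high libraries, and ranged over -0.397 to 0.586 when 1 library was left out. In Ezh2 +/- it turned to -0.014 in female libraries and -0.028 with the compared groups alone, and in V617F Ezh2 -/- against controls it ranged over -0.006 to 0.909 when 1 library was left out. In Ezh2 -/- against Ezh2 +/+, Mpo (0.136), Prtn3 (0.075), Ctsg (0.121) and Cebpa (0.114) changed sign without the 3 high libraries. The causes were not tested. Without those libraries other azurophil genes called higher with V617F numbered 9, 0 and 6 in Ezh2 -/-, Ezh2 +/- and Ezh2 +/+, an alternative added after seeing the data.

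Same-numbered libraries did not deviate together in every pair of any comparison (r -0.441 to 0.795), so the numbers were not taken as a pairing. The 0.795 was that of control replicate 5 and Ezh2 +/- replicate 5, both among the high libraries set apart. In Ezh2 +/- against Ezh2 +/+, with or without V617F, r exceeded 0.1 in 3 of 4 pairs. The same held for V617F against none in Ezh2 -/-. With the replicate block 6, 0 and 5 genes were called with V617F in Ezh2 -/-, Ezh2 +/- and Ezh2 +/+, and 5 in V617F Ezh2 -/- against controls, and at most 4 of 8 libraries correlated best with their own number. The lowest count of any of the 7 genes was 14, so none was limited by a count of 0.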
